A study of Mus musculus with 6 samples.

Results

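Heme is made from glycine and succinyl-CoA by a chain of enzymes, and 7 of them were followed here in pathway order through all 6 deposited count tables: Alas2, Alad, Uros, Urod, Cpox, Ppox and Fech. The genes form a list by name, with no threshold on a measured value. They are 7 of the 23284 gene symbols in the tables, and all 7 were among the 10512 genes with enough reads to be tested. RNA with a poly(A) tail was sequenced from erythroblasts of C57BL/6 mouse embryos at embryonic stage E10.5, the cells that still have a nucleus and mature into red cells. Live cells positive for Ter119, a red cell surface antigen, and CD71, the transferrin receptor, had been sorted. The study asked what the loss of Setd8, a methyltransferase for lysine 20 of histone H4, does in these cells. The 3 null libraries carried floxed Setd8 alleles on both chromosomes together with Cre recombinase expressed from the erythropoietin receptor locus (EpoR Cre). Control replicates 1 and 3 carried the same Cre with wild-type Setd8 (Setd8 +/+ EpoRCre). Control replicate 2 carried the floxed alleles without Cre (Setd8 fl/fl EpoR WT). The Cre acts where the receptor gene is on, so the deletion is limited to cells with receptor expression and their descendants, and the labels give no measure of how complete it was. The sample labels name fetal liver as the source and the design text names fetal blood.

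Heme synthesis starts in the mitochondrion, moves to the cytosol and returns to the mitochondrion for its last steps. Alas2, the erythroid 5-aminolevulinate synthase on the X chromosome, makes 5-aminolevulinic acid and is the rate-limiting step in red cell precursors, while its paralog Alas1 serves other tissues. In the cytosol Alad condenses that product into the pyrrole porphobilinogen. Uros closes the tetrapyrrole ring, with a pyrrole unit inverted, as uroporphyrinogen III, and Urod removes carboxyl groups from it to give coproporphyrinogen III. In the mitochondrion Cpox and Ppox carry out the oxidations that give protoporphyrin IX, and Fech (ferrochelatase) inserts the iron. In erythroid cells GATA1 and KLF1, 2 transcription factors of the lineage, are known regulators of genes of this chain, and most of the heme made goes into hemoglobin.

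The start regions of 3 of the genes are shown because these genes behaved differently across the libraries or in the pathway: Alas2 as the rate-limiting step, Cpox with higher levels in one set of libraries and Alad with higher levels in the other. Each is a RefSeq window of build GRCm38.p6 that runs from 250 bases before to 50 bases after the annotated start, read 5′ to 3′ on the strand of the gene. Capitals mark AGATAA, a form of the site bound by GATA factors, and CCNCNCCC, the CACC box bound by Kruppel-like factors, on either strand. A reverse-strand match appears as the reverse complement (TTATCT for AGATAA). Other forms of the GATA site were not searched, and stretches that hold them are not marked. CCNCNCCC matches can overlap each other, and a run of capitals can then hold more than 1 match.
Alas2, chrX:150547167-150547466, plus strand: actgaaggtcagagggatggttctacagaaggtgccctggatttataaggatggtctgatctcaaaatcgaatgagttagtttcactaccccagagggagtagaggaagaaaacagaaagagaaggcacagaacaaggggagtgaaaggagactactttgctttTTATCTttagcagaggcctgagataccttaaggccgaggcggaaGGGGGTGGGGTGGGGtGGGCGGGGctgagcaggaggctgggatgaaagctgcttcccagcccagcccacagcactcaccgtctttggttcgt
Cpox, chr16:58669958-58670257, plus strand: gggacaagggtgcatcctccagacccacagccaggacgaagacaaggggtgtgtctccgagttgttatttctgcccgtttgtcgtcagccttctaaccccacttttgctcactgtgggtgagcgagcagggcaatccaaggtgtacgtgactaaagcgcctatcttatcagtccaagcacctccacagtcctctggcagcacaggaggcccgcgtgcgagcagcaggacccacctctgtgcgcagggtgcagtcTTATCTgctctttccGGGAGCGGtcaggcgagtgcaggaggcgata
Alad, second of its annotated starts, chr4:62519860-62520159, minus strand: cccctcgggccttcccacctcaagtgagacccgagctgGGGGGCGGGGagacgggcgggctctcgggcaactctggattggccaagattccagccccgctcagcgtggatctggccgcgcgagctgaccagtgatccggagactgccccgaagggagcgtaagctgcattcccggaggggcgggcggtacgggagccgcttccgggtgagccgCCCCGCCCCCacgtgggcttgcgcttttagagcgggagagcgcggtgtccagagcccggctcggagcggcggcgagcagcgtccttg
The Alas2 window held 1 AGATAA match, which began 86 bases before the start (position -86), and 4 CCNCNCCC matches on the reverse strand at -42, -40, -35 and -26, of which the first 3 overlap. It also held a match to TATAAA, the TATA box motif, at -209 on the reverse strand. The Cpox window held 1 AGATAA match at position 5 and 1 CCNCNCCC match at 20, both after the start. The Alad window held 4 CCNCNCCC matches and no AGATAA. Windows of 6 of the 7 genes were examined, 8 windows in all, and Fech was left out of this step. The windows of Uros, Urod, Ppox and the other Alad start held 0 AGATAA matches and between 0 and 2 CCNCNCCC matches. TGANTCA, the core bound by NF-E2 and AP-1, was in 0 of the 8. Of all 32851 RefSeq promoter windows, 11.2% held AGATAA, 49.5% CCNCNCCC, 7.81% TGANTCA and 13.6% TATAAA, so CCNCNCCC is a common match. The Alas2 window had 6 CpG dinucleotides, near the median of 7 over all windows, whereas the Alad window shown had 33 and the Cpox window 15. A match is a run of letters and says nothing of binding, since no binding or methylation was measured.

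The assigned counts ranged from 7756940 in control replicate 1 to 21434719 in control replicate 2. The libraries fall into a pair of sets by their titles: control replicates 1 and 2 and null replicate 1 have no trailing letter (unlettered set), and control replicate 3 and null replicates 2 and 3 have one (lettered set). The labels do not say what the letter stands for. All levels below are CPM, counts brought to a common library total with TMM, edgeR's scaling factor for composition. Setd8 itself was at 73.9, 74.8 and 203.5 CPM in control replicates 1 to 3 and at 48.9, 100.3 and 96.3 CPM in null replicates 1 to 3. Within each set its null libraries lay below its controls, with a log2 ratio of -0.83 (SE 0.17, edgeR adjusted p = 0.00911, n = 3 per group, title set as a term), and the adjusted p was 0.134 without control replicate 3, 0.234 with a term for Y-linked transcripts and 0.702 with group alone. The counts cover the whole gene, and reads from inside and outside the floxed part cannot be told apart in them. The 11 erythroid markers found in the tables summed to 6453–7149 CPM in controls and 5123–5448 CPM in null libraries, so every library carried the markers of its labelled cell type. The hepatoblast markers Alb and Fgb were at 0 counts in every library, and the 11 markers of that list summed to 0.692–5.02 CPM in controls and 0.924–5.73 CPM in null libraries. Y-linked transcripts were detected in control replicate 1 and in the 3 null libraries, and not in control replicates 2 and 3, so embryo sex and group are partly confounded.

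Alas2 varied less between libraries than Alad, Cpox or Fech. It stood at 2918, 3016 and 2288 CPM in control replicates 1 to 3 and at 3060, 2500 and 2527 CPM in null replicates 1 to 3. The groups overlapped, and the lowest level was the control of the lettered set. Other genes overlap 15.48% of the exon bases of Alas2. Reads from Apex2, on the opposite strand, could add to these counts there, and reads of Alas2 itself could be left out. Apex2 was at 16.7–31.5 CPM.

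Of the cytosolic enzymes, Alad and Uros differed more among the libraries than Alas2. Alad was at 2855, 3076 and 1166 CPM in controls and at 2742, 911.5 and 835.7 CPM in null libraries. All 3 unlettered libraries were above all 3 lettered ones, and within each set the null libraries were below the controls. Uros was at 448.3, 532.6 and 299.6 CPM in controls and at 413.8, 281.3 and 265.6 CPM in null libraries. It kept the order of Alad between sets and between groups with a smaller spread. Urod was at 734.9, 685.0 and 792.8 CPM in controls and at 692.2, 698.3 and 602.2 CPM in null libraries. Neither the groups nor the sets were separated for this enzyme.

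The mitochondrial enzymes at the end of the chain showed the reverse order of the sets. Cpox was at 464.1, 415.3 and 1711 CPM in controls and at 397.9, 1780 and 1694 CPM in null libraries. Fech was at 285.6, 282.2 and 1575 CPM in controls and at 332.7, 1845 and 1895 CPM in null libraries. For both genes every lettered library was above every unlettered one. The Fech level was also higher in the null than in the control libraries within each set. Ppox, between them in the pathway, did not follow: it was at 273.9, 253.7 and 209.3 CPM in controls and at 239.0, 251.3 and 226.1 CPM in null libraries, and its groups and its sets overlapped. B4galt3, on the opposite strand and at 31.8–91 CPM, overlaps 17.52% of the Ppox exon bases. Reads from the overlap may have been added to these counts or left out of them, since no source used here states the strand setting. The null and control libraries overlapped for all 7 members, while 24.1% of all genes tested separated the groups. Both groups hold libraries of both title sets, so a large gap between the sets can by itself make the groups overlap. Every member had at least 1848 reads in every library, where counting error alone is 2.326% (SD).

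**Figure D1:**
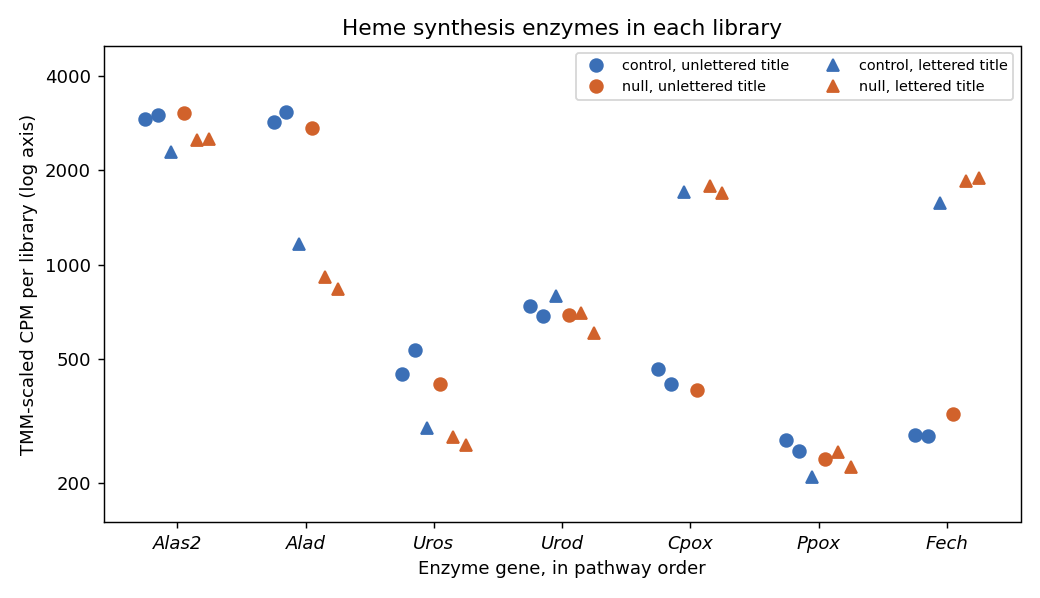
Level of each of the 7 enzymes in each library, in TMM-scaled CPM on a log axis, with points for the 6 libraries by group and title set. Cpox and Fech lie higher in the 3 lettered libraries, Alad and Uros lie higher in the 3 unlettered ones, and no enzyme separates the 3 null from the 3 control libraries. Both groups hold libraries of both title sets, so a gap between the sets can by itself make the groups overlap.

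None of the 7 transcripts differed between null and control erythroblasts at the threshold. The comparison was made within the title sets by fitting the set as a term, and 0 of 7 members passed an edgeR adjusted p of 0.05, against 12.8% of all 10512 genes tested. At an unadjusted p under 0.05 this edgeR fit gave 0 members, and DESeq2 gave 0 adjusted and 1 unadjusted (Alad). In edgeR alternatives Alad had an unadjusted p of 0.0487 with genes of at least 1 count (adjusted p = 0.254). Without null replicate 1 its unadjusted edgeR p was 0.0282 (adjusted p = 0.229). The largest ratio downwards was that of Alad, whose control mean was 2366 ± 1045 CPM and null mean 1496 ± 1080 CPM (SD, n = 3 each). Its log2 ratio, null over control, was -0.26 (SE 0.147, 95% interval -0.59 to 0.058, edgeR adjusted p = 0.275). The largest upwards was that of Fech, from 714.3 ± 745.6 CPM in controls to 1358 ± 888 CPM in null libraries (SD, n = 3 each). Its log2 ratio was 0.24 (SE 0.14, 95% interval -0.068 to 0.54, edgeR adjusted p = 0.305). The SDs of both genes mostly hold the gap between the title sets, which the fit takes out.

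The other 5 ratios were smaller. Alas2 had control and null means of 2741 ± 395.4 and 2696 ± 315.3 CPM (SD, n = 3 each) and a log2 ratio of 0.090 (SE 0.142, edgeR adjusted p = 0.734). The gene for the rate-limiting step thus had a 95% interval of -0.22 to 0.40. Because Alas2 is X-linked, a fit with the presence of Y-linked transcripts as a further term was also made, and it gave a log2 ratio of 0.10 (SE 0.254, edgeR adjusted p = 0.879). Uros had a log2 ratio of -0.19 (SE 0.151, edgeR adjusted p = 0.468) and Urod one of -0.16 (SE 0.149, edgeR adjusted p = 0.536). Cpox had a log2 ratio of -0.061 (SE 0.147, edgeR adjusted p = 0.831) and Ppox one of 0.024 (SE 0.158, edgeR adjusted p = 0.944), which turned to -0.0112 with DESeq2 size factors and -0.026 with globins left out of the scaling. The lowest and highest bounds of the 7 intervals correspond to folds of 0.666 (Alad) and 1.46 (Fech). As folds, the interval of Alad ran from 0.666 to 1.04, that of Alas2 from 0.858 to 1.32 and that of Fech from 0.954 to 1.46. Changes inside a gene's own interval are not resolved here.

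Set beside the rest of the transcriptome, the 7 ratios lay close to 0. Their median absolute log2 ratio was 0.161, against 0.509 over all genes tested, and 71.9% of genes tested had a larger absolute ratio than any member. The signed medians were -0.061 for the members and 0.0435 for all genes. The members are abundant transcripts, with SEs of 0.14 to 0.158 against a median of 0.366 for all genes, so their ratios also carry less error than most. In these bulk samples, fewer cells of a type and less RNA per cell cannot be told apart. The summed erythroid markers were lower in the null libraries by the ranges given above, and markers of several other cell types were higher. The 11 macrophage markers in the tables summed to 1.81–11.1 CPM in controls and 34.1–91.1 CPM in null libraries, and the 10 endothelial markers, with Cldn5 and Emcn at 0, to 3.73–12 and 25.3–38.8 CPM. The 9 megakaryocyte markers summed to 14.3–35.7 and 43.3–85 CPM and the 8 blood progenitor markers to 2.82–7.81 and 15.5–32.8 CPM in the same order. The hepatoblast sums given above overlapped between groups, as did those of the 8 mesenchymal markers, with Twist1 and Dcn at 0 (0.148–3.21 and 0.207–3.18 CPM), and of the 9 granulocyte and mast cell markers, with Elane, Cpa3 and Ngp at 0 (0–1.91 and 1.08–66.5 CPM). The part of these markers in the members' ratios was not tested.

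**Figure D2:**
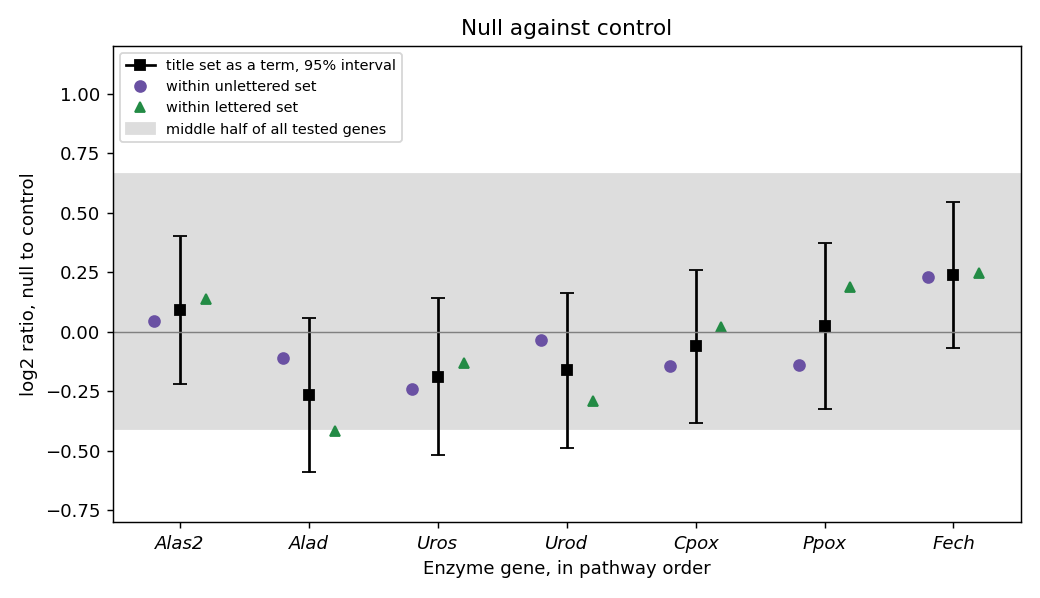
Log2 ratio of null to control for each enzyme in pathway order, from the edgeR fit with title set as a term, with bars for the 95% interval, and, as separate points, the ratio within each title set. The grey band runs from the 25th to the 75th percentile of all genes tested (-0.409 to 0.661), and all 7 intervals include 0, with estimates from -0.26 for Alad to 0.24 for Fech.

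Within the title sets taken alone, 5 of 7 members had the same sign in both, as did 68.6% of all genes. Fech had log2 ratios of 0.23 (unlettered) and 0.25 (lettered). Alas2 had 0.0445 and 0.14, Alad -0.11 and -0.42, Uros -0.24 and -0.13, and Urod -0.036 and -0.29 in the same order. Cpox had -0.14 and 0.022 and Ppox -0.14 and 0.19, so the signs of these neighbours in the pathway differed between sets. In both sets alike, the null libraries lay above the controls for 2 members (Alas2 and Fech) and below them for 2 (Alad and Uros). The background was 25.8% and 21.5% of tested genes, so these counts out of 7 are near it. A direct test of the difference between sets, the edgeR interaction, called 0 members, with 0 at an unadjusted p under 0.05 and 0.00951% of all genes called. Its intervals reached from -0.91 (Ppox, lower bound) to 0.84 (Alad, upper bound) on the log2 scale, so differences inside them are not resolved.

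The title sets themselves differed far more than the groups for 4 of the enzymes. With group as a term, edgeR called 2 members higher in the unlettered set (Alad and Uros), 2 lower (Cpox and Fech) and 3 neither, while 28.5% of all genes were called, 10.9% higher and 17.7% lower in the unlettered set. Alad was 2.83-fold higher in the unlettered set (log2 ratio 1.499, SE 0.15, edgeR adjusted p = 1.79e-05). Uros was 1.57-fold higher there (log2 ratio 0.65, SE 0.151, edgeR adjusted p = 0.00646). Cpox was 4.12-fold higher in the lettered set (log2 ratio of unlettered to lettered -2.04, SE 0.15, edgeR adjusted p = 2.07e-06). Fech was 5.58-fold higher there (log2 ratio -2.48, SE 0.145, edgeR adjusted p = 4.91e-07). Over all genes the 5th percentile of that ratio was -2.64. Alas2 (0.33, SE 0.142, edgeR adjusted p = 0.111), Ppox (0.17, SE 0.158, edgeR adjusted p = 0.48) and Urod (-0.0345, SE 0.149, edgeR adjusted p = 0.892, and 0.048 with DESeq2 size factors) did not pass, though all 3 unlettered Alas2 levels were above the lettered ones. Sets that did not overlap were found for 5 of 7 members and for 38.8% of all genes tested.

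**Figure D3:**
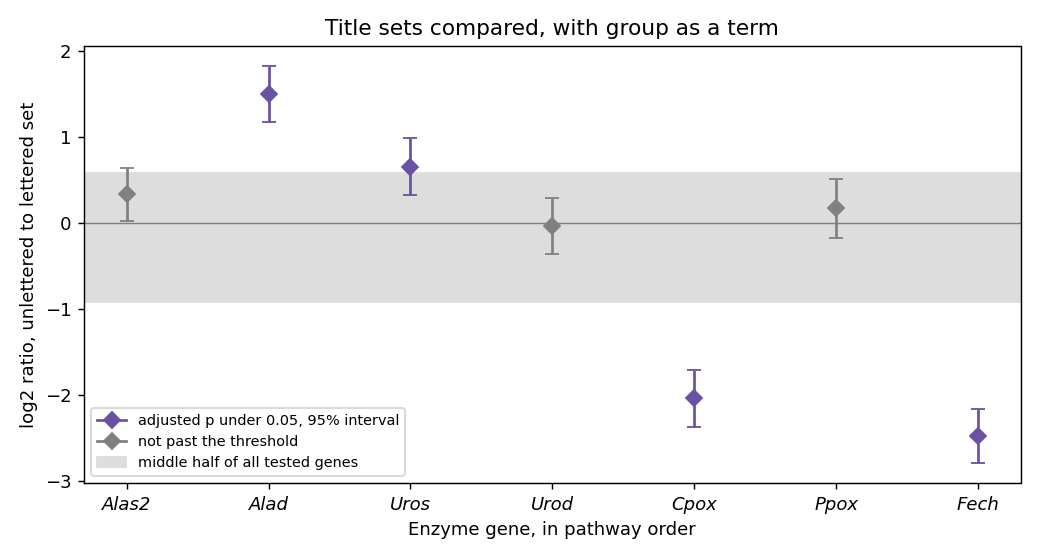
Log2 ratio of the unlettered to the lettered title set for each enzyme in pathway order, from the edgeR fit with group as a term, with bars for the 95% interval and a grey band from the 25th to the 75th percentile of all genes tested (-0.919 to 0.575). Alad and Uros lie above 0, Cpox and Fech lie below it, and the intervals of Urod and Ppox include 0.

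Without the set term several ratios between null and control were different. With group alone, Fech had a log2 ratio of null to control of 0.93 (SE 0.889, edgeR adjusted p = 0.709), Cpox 0.58 (SE 0.748, edgeR adjusted p = 0.797) and Alad -0.66 (SE 0.608, edgeR adjusted p = 0.695). The null group holds 2 lettered libraries and the control group 1. Alas2 then had -0.024 (SE 0.331, edgeR adjusted p = 0.986) and Ppox -0.040 (SE 0.226, edgeR adjusted p = 0.959). Cpox, Alas2 and Ppox thus had the opposite sign from the fit with the set. In that fit edgeR called 0 members, with 0 at an unadjusted p under 0.05, against 1.15% of all genes.

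Levels can be compared between enzymes only per length, and the CPM was divided by the length of the principal GENCODE transcript (CPM per kb). In the unlettered libraries Alad was first at 2199–2467 CPM per kb and Alas2 second at 1433–1502. In the lettered libraries Alas2 was first at 1123–1241 CPM per kb and Alad second at 670.1–934.8. Urod lay at 404.4–532.4 CPM per kb over all 6 libraries and Uros at 150.7–302.3. Ppox was at 114.9–150.4 CPM per kb throughout. Cpox was at 128.5–149.9 CPM per kb in the unlettered libraries, beside Ppox, and at 547–574.8 in the lettered ones, above Urod. Fech was last in the unlettered libraries at 43–50.6 CPM per kb and had 239.7–288.5 in the lettered ones, above Uros and Ppox. In the unlettered set Ppox and Cpox have neighbouring ranks, and their ranges there, 131.2–150.4 and 128.5–149.9 CPM per kb, overlap. The order depends on the length used, since Fech has 5 coding transcripts of 1753 to 6571 bases and was divided by the longest, and per coding length it was first in null replicates 2 and 3.

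In the make-up of the 7 transcripts, each library's CPM per kb taken as 100%, Alas2 held 29.5% to 36.2% in all 6 libraries. Alad held 46.7% to 49.1% in the unlettered libraries and 19.6% to 25.5% in the lettered ones. Cpox went from 2.67–3.11% to 15.1–16.1% and Fech from 0.855–1.07% to 6.54–8.42% between the same sets. The ratio of Fech to Alas2 counts, the last and the first enzyme of the chain, was 0.0936 to 0.109 in unlettered and 0.689 to 0.75 in lettered libraries. Ratios of this kind use no library scaling. Over 9137 genes the ratio between the sets had a Spearman correlation of -0.0425 with transcript length and -0.188 with the G+C share, as a description across genes, which are not independent replicates. Fech and Cpox have the lowest G+C shares of the 7, at 46.02% and 47.72%, and Alad the highest, at 58.54%. Across all genes a higher G+C share went with a lower ratio of unlettered to lettered. Alad was higher in the unlettered set and Fech and Cpox in the lettered one, which is the opposite direction. By length, Fech (6571 bases) and Cpox (3097 bases) have the longest transcripts of the 7 and Alad the shortest (1247 bases). That order has the same sign as the weak correlation with transcript length over all genes. The part of the G+C share and of the length in the members' set ratios was not tested.

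**Figure D4:**
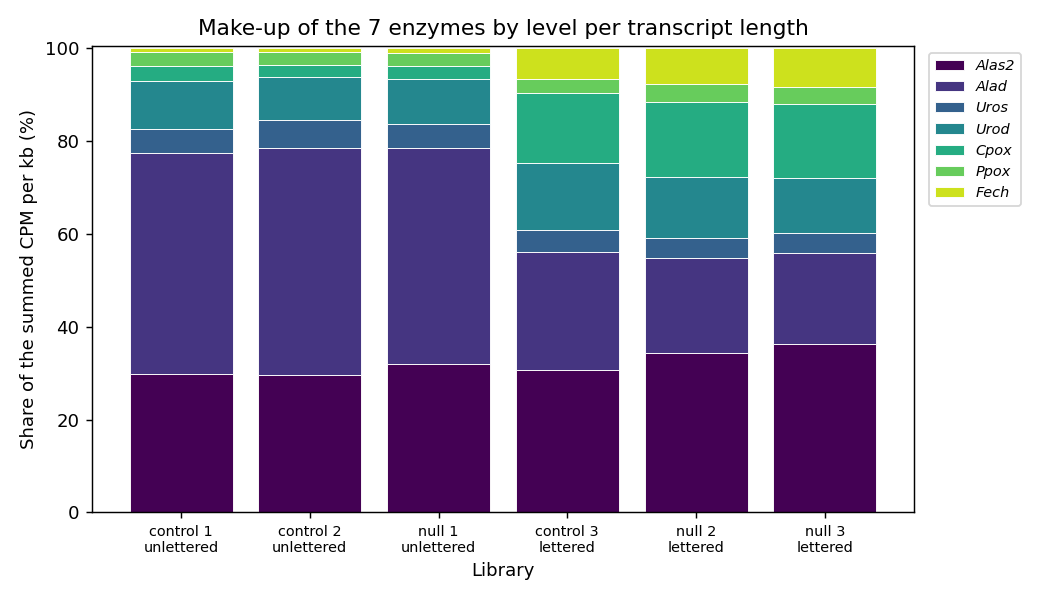
Share of each enzyme in the summed CPM per kb of the 7, in percent, as stacked bars for the 6 libraries. Alas2 keeps 29.5% to 36.2% in every library, while Alad takes 46.7% to 49.1% in the unlettered libraries and 19.6% to 25.5% in the lettered ones.

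Around the 7 enzymes, 72 genes that supply, use or control heme were listed by function, and 61 of them were tested. Of these 5 were higher and 5 lower in null libraries by edgeR, against 8.65% and 4.16% of all genes tested. Of these 10 calls, edgeR kept Hmox1 alone with group as the only term, and Hmox1 and Suclg2 with a term for Y-linked transcripts beside the title set. Hmox1, heme oxygenase 1, opens the heme ring and had the largest ratio of the 61. It was at 0.889, 0.639 and 1.21 CPM in controls and at 309.1, 186.2 and 169.0 CPM in null libraries. Every null library was above every control, with a log2 ratio of 7.93 (SE 0.325, edgeR adjusted p = 1.05e-07, n = 3 per group), and the call held in all 6 fits that left out a library. Its log2 ratio was 7.18 without null replicate 1 and 8.73 without control replicate 3. Blvrb, a biliverdin reductase, rose as well (log2 ratio 0.64, SE 0.163, edgeR adjusted p = 0.0255). Thus 2 of the 4 heme breakdown genes rose, and Hmox2 and Blvra did not pass. The Blvrb call was lost without control replicate 1 or 2 or null replicate 1 or 2, with adjusted p up to 0.356. Hmox1 is also expressed by macrophages, whose summed markers were higher in null libraries as given above, and their part was not tested.

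Of 11 tested genes of substrate supply 2 fell and the other 9 did not pass, among them Gcsh, a protein of the glycine cleavage system, at a log2 ratio of 0.605 (SE 0.207, edgeR adjusted p = 0.0787). Slc6a9, the glycine transporter GlyT1, was at 94.7, 123.3 and 147.9 CPM in controls and at 47.2, 74.1 and 85.5 CPM in null libraries (log2 ratio -1.05, SE 0.19, edgeR adjusted p = 0.00456). Suclg2, a subunit of a succinyl-CoA ligase, was at 88.3, 75.8 and 87.3 CPM in controls and at 22.8, 26.2 and 46.3 CPM in null libraries (log2 ratio -1.55, SE 0.267, edgeR adjusted p = 0.00341). All null libraries were below all controls for both genes. Ogdh, a subunit of the 2-oxoglutarate dehydrogenase that makes succinyl-CoA, had a log2 ratio of 0.19 (SE 0.167, edgeR adjusted p = 0.509). Of 15 genes of iron delivery and iron-sulfur assembly 1 fell: Tfrc, the transferrin receptor and the CD71 antigen of the sort, at 398.5, 435.4 and 443.5 CPM in controls and 191.8, 273.2 and 265.5 CPM in null libraries (log2 ratio -0.92, SE 0.16, edgeR adjusted p = 0.00363). Slc25a37, the mitochondrial iron importer mitoferrin 1, did not pass (log2 ratio -0.22, SE 0.17, edgeR adjusted p = 0.453). The highest ratio of that list was that of Fdxr, a reductase of mitochondrial electron transfer (log2 ratio 1.17, SE 0.399, edgeR adjusted p = 0.0777). With genes of at least 1 count, or without null replicate 3, 1 gene of the iron list was called higher. The calls of Slc6a9, Suclg2 and Tfrc were lost without null replicate 1, at adjusted p of 0.0988, 0.0981 and 0.0684, where the unlettered set has no null library left. With the Y-linked term the adjusted p was 0.184 for Slc6a9 and 0.114 for Tfrc, and with group alone it was 0.263 for Slc6a9, 0.104 for Suclg2 and 0.184 for Tfrc.

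Of 8 tested genes of porphyrin and heme transport 2 rose and 6 did not pass. Slc48a1, the heme transporter HRG1, was at 30.5, 33.5 and 57.8 CPM in controls and at 63.9, 107.5 and 117.4 CPM in null libraries (log2 ratio 0.98, SE 0.181, edgeR adjusted p = 0.00521). Its adjusted p was 0.103 without null replicate 1, 0.113 with the Y-linked term and 0.164 with group alone. Tspo, a protein of the outer mitochondrial membrane that binds porphyrins, had a log2 ratio of 0.67 (SE 0.189, edgeR adjusted p = 0.0383), and its call was lost in each of the 6 fits that left out a library, at adjusted p of 0.0771 to 0.312. Tmem14c, needed in mice for the import of protoporphyrinogen IX, had a log2 ratio of -0.15 (SE 0.163, edgeR adjusted p = 0.613). Of 11 tested genes that control ALA synthase or sense heme, edgeR called 0, with 1 at an unadjusted p under 0.05 (Nrf1) and 1 called by DESeq2. Alas1, the housekeeping form of the first enzyme, was at 4.74, 1.22 and 9.53 CPM in controls and at 14.0, 5.96 and 11.3 CPM in null libraries (log2 ratio 1.04, SE 0.653, edgeR adjusted p = 0.339).

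Among 9 erythroid regulators 1 rose, 1 fell and 7 did not pass. Nfe2, the large subunit of the globin regulator NF-E2, had a log2 ratio of 0.63 (SE 0.151, edgeR adjusted p = 0.0187), and was lost without control replicate 1 or 2 or null replicate 1 or 2, with adjusted p up to 0.221. Epor, the erythropoietin receptor, was at 52.3, 117.8 and 158.3 CPM in controls and at 34.5, 91.3 and 84.6 CPM in null libraries (log2 ratio -1.08, SE 0.286, edgeR adjusted p = 0.0313). Control replicate 2 has the wild-type receptor locus and the other 5 libraries carry the Cre allele there, and the call was lost without control replicate 3, null replicate 1 or null replicate 2, with adjusted p up to 0.316. With the Y-linked term the Epor log2 ratio was -0.31 (SE 0.353, edgeR adjusted p = 0.702), and with group alone it was -0.64 (SE 0.507, edgeR adjusted p = 0.633). Gata1 (log2 ratio -0.059, SE 0.15, edgeR adjusted p = 0.843) and Klf1 (log2 ratio -0.18, SE 0.164, edgeR adjusted p = 0.533) did not pass. Klf1 split by set like Cpox and Fech, at 66.9–87.6 CPM in the unlettered and 542.7–714.8 CPM in the lettered libraries. Of 3 tested globins Hba-x, the embryonic alpha-like globin, fell (log2 ratio -0.60, SE 0.173, edgeR adjusted p = 0.0434), a call lost in each of the 6 fits that left out a library, at adjusted p of 0.0633 to 0.253. Hbb-y and Hbb-bh1, embryonic beta-like globins, did not pass, at log2 ratios of -0.21 (edgeR adjusted p = 0.494) and -0.29 (edgeR adjusted p = 0.355). The 4 adult globin genes were not tested, and reads of near-identical globin copies may be divided or dropped by the counting. Between the title sets 15 of the 61 listed genes were called higher and 20 lower in the unlettered set, against 10.9% and 17.7% of all genes tested.

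**Figure D5:**
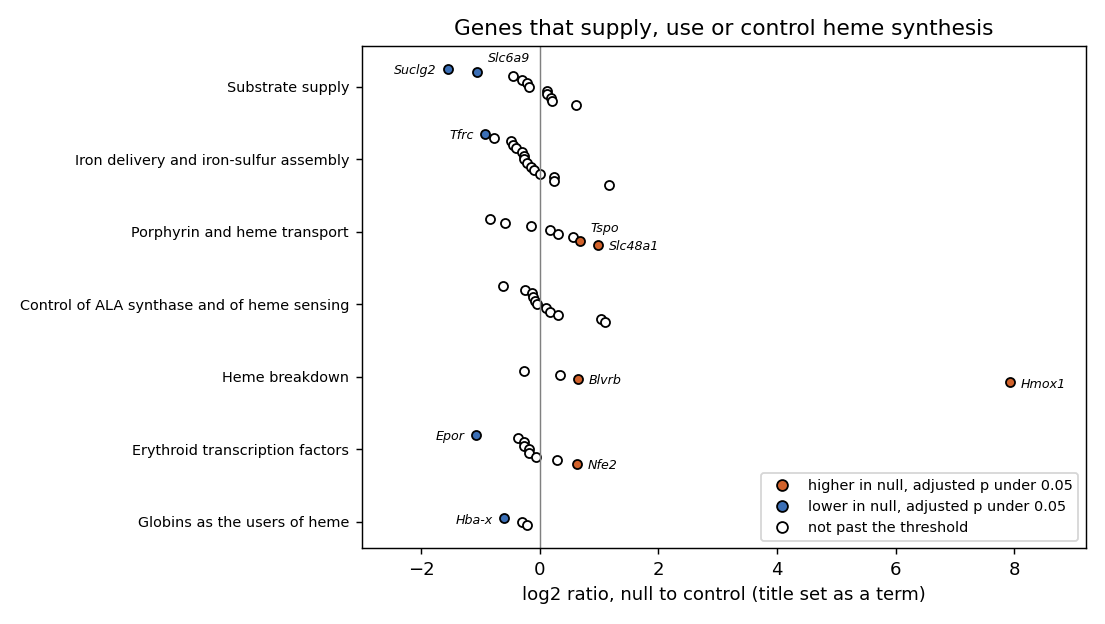
Log2 ratio of null to control for the 61 tested genes that supply, use or control heme, 1 point per gene in 7 functional rows, filled where the edgeR adjusted p was under 0.05. Hmox1 stands at 7.93, the other 9 filled points lie between -1.55 and 0.98, and 51 genes are not past the threshold.

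Genes were compared with the mean log2 CPM of the 7 enzymes by Pearson's r over the 6 libraries, as a description, since the libraries share the title sets. This mean was higher in the lettered libraries, as Cpox and Fech were, and unlike Alas2, Alad and Uros. Rbm34 was nearest to it, with r = 0.9986, followed by Tigd5 (0.9966), Wbscr16 (0.9964), Srsf11 (0.9954) and Ube2d2 (0.9949). Rbm34 was at 14.8, 14.2 and 39.8 CPM in controls and at 11.5, 38.1 and 28.2 CPM in null libraries, so it shows the split between title sets. For Alas2 alone the nearest were Rbm5 (0.9959), Map3k1 (0.9958) and Impact (0.9936), all higher in the unlettered set. Among the members, log2 CPM of Cpox and Fech had r = 0.991, Alad and Uros 0.972, and Alad and Fech -0.993 over the same 6 libraries.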

How the data were processed

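Poly(A) RNA of 6 sorted erythroblast samples was measured, 3 Setd8 null and 3 control, numbered in accession order. The authors deposited 1 table of raw read counts per gene symbol for each library, as whole numbers without normalization. The tools, per the submitters' processing notes, were FastQC, Trimmomatic 0.32, TopHat2 2.1.0, HTSeq 0.6.1 and edgeR, with build mm9; no source used here states the strand setting, so overlapping genes on opposite strands cannot be told apart. In the 3 unlettered tables the counter's summary lines, which name no gene, were left out (no-feature reads were 42.94%, 7.717% and 6.072% of control replicates 1 and 2 and null replicate 1), and 25 symbols turned into dates were mapped back. No such lines were in the lettered tables.

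Counts were compared in R 4.3.3 with edgeR 4.0.16: filterByExpr by group, TMM, glmQLFit (robust), glmQLFTest, 2-sided, with group and title set as terms and 3 residual degrees of freedom. P-values were Benjamini-Hochberg adjusted over all 10512 genes, with a threshold of 0.05. DESeq2 1.42.0 was an alternative, beside group alone, a Y-linked term, other scalings, no filter and leaving out each library. Ratios within a set are differences of mean log2 CPM (prior count 2), with no test. Nothing in the labels says that replicates are separate embryos, so the p-values cover only the spread among these libraries, part of which may be technical. Same-group libraries differed beyond sampling noise. Chi-square per degree of freedom was 15.7 and 28.7 for pairs within a title set and 112.2 to 269.3 for pairs across the sets.

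Lengths and exon overlaps come from GENCODE M21 (GRCm38) and promoter windows from RefSeq, while no coordinate of the counted build was used. Named were all members, Setd8, every gene of a list past the threshold with at most 3 of its other genes of highest mean CPM, and the genes most like the members by r; Alas1, Nrf1, Gcsh, Fdxr and the overlapping genes were named after their values were seen. The members and lists were chosen with earlier results of these data known. A further enzyme of the pathway is not reported here.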

Additional observations from a re-analysis of the deposited data

Results flagged for a closer look

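Ppox, the oxidase before ferrochelatase, moved in opposite directions in the title sets. Its log2 ratio of null to control was -0.14 in the unlettered set, where the null library lay below both controls, and 0.19 in the lettered set, where both null libraries lay above the control. The difference between the ratios, as the edgeR interaction of group and set, was -0.33 (SE 0.26, adjusted p = 0.841), which did not pass the threshold.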

How the results depend on the processing

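In the tested alternatives 0 members were called, with the lowest edgeR or DESeq2 adjusted p at 0.138 (Alad, DESeq2), and Alad, Uros, Urod and Fech kept their direction. With group alone the log2 ratio (null over control) was -0.024 for Alas2, 0.58 for Cpox and -0.040 for Ppox. Ppox, near 0, was also negative with the Y-linked term (-0.12), DESeq2 size factors (-0.0112), globins left out of the scaling (-0.026), DESeq2's own test (-0.0109) and genes with at least 1 count (-0.018), and ranged from -0.16 to 0.18 when a library was left out (-0.16, -0.085 and -0.0455 without control replicate 3, null replicate 2 and null replicate 3). Cpox ranged from -0.16 to 0.014 there (0.014 without null replicate 1). Within the unlettered and lettered sets the ratio was 0.0445 and 0.14 for Alas2, -0.11 and -0.42 for Alad and -0.14 and 0.19 for Ppox, and in the lettered set -0.29 for Urod and 0.022 for Cpox. Between sets, Urod was at 0.048 with DESeq2 size factors, 0.16 without control replicate 3 and 0.0056 without null replicate 2, in a range of -0.16 to 0.16. The Fech difference between sets was 0.012 with DESeq2 size factors. The cause of these reversals was not tested. Of all genes, 909 were higher and 437 lower, against 120 and 1 with group alone, 161 and 62 with the Y-linked term, 882 lower with DESeq2 and 723 lower with genes of at least 1 count. Leaving out a library gave 162 (without null replicate 1) to 869 higher and 40 to 734 lower. Of the listed partner genes, 5 and 5, against 1 and 0 with group alone, 1 and 1 with the Y-linked term, 3 higher with globins left out of the scaling and 9 lower with DESeq2; leaving out a library gave 1 to 5 higher and 0 to 5 lower. No paired analysis was possible because the labels give no replicate numbers. Control replicate 1, the shallowest, sets the depth limit, at 0.387 CPM for 3 counts.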

Other observations

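The summed level of the 7 enzymes was nearly the same in all libraries although its parts were not. It was 7980, 8261 and 8041 CPM in control replicates 1 to 3 and 7877, 8268 and 8046 CPM in null replicates 1 to 3, a ratio of highest to lowest of 1.05. In alternatives added after seeing the data this ratio was 1.12 with DESeq2 size factors, 1.08 with globins left out of the scaling and 1.62 with library totals without TMM, so the near-constant sum belongs to the scaled values. Globins took 26.46% to 45.15% of the counts of a library.

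After Alas2, the log2 ratios of null to control rose in pathway order, from -0.26 for Alad over -0.19 for Uros, -0.16 for Urod, -0.061 for Cpox and 0.024 for Ppox to 0.24 for Fech. Alas2, the first enzyme, was at 0.090 and breaks the order, which starts only after it. With group alone the order did not hold, at 0.58 for Cpox and -0.040 for Ppox. The 95% intervals all overlap, the order held in neither title set alone and was not tested. The ratio of Fech to Alad counts was 0.1, 0.0917 and 1.35 in controls and 0.121, 2.02 and 2.27 in null libraries, and so was higher in the null libraries within each set. This ratio uses no library scaling, and its ends were picked after their values were seen.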
